A study of Zea mays with 48 samples.

Results

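In maize seedlings whose roots were chilled while the shoot stayed warm, 178 nuclear genes were far higher in the leaf than in control leaf, yet changed little in leaves that were themselves chilled. These genes were chosen from the measured values, out of 23290 nuclear gene models present in at least 1 of the 4 deposited tissue tables. A gene's change was the log2 ratio of mean levels in chilled and control libraries, with 1 added to each mean. That change had to be at least 2.5 in leaf under root-only chilling. It had to lie between -1 and 1 in leaf under both other kinds of chilling and in root under root-only chilling, and below 1 in root under shoot-only chilling. Levels are in CPM, a gene's counts per unit of library size as rescaled by the authors, and a gene absent from a tissue's table counted as 0 there. With plain library sizes in place of the authors' rescaled ones, 278 genes met the same conditions, 171 of them shared with the 178.

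All plants were B73, a maize inbred, with 3 leaves. Control plants had shoot and root at 26 °C. Whole-plant chilling put both at 4 °C, shoot-only chilling put the shoot at 4 °C over a root at 26 °C, and root-only chilling put the root at 0 °C under a shoot at 26 °C, each for 24 h. Leaf, root and the top and bottom parts of the crown, the junction between shoot and root, were each sampled in 3 libraries per condition, 48 in all. The labels do not give the temperature of the crown under local chilling, nor whether replicates came from separate plants or pools, so p-values measure the spread between these libraries. The root was colder under root-only than under whole-plant chilling, and that difference cannot be told apart from the difference in shoot temperature.

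Maize is a crop of tropical origin and is sensitive to chilling. Cooling a root slows its uptake of water, while a warm, lit shoot goes on transpiring, so cold roots are known to bring water deficit in leaves that are not cold. Roots and shoots also exchange hormones, peptides, sugars and other signals through xylem and phloem, and a leaf can therefore change its gene expression after an event in the root. The comparisons below ask where else in the plant, and under which other chilling, genes with this leaf pattern changed.

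Total counts ran from 3449880 to 6066911 per leaf library, from 4009174 to 5895918 in top crown, from 5077521 to 8633854 in bottom crown and from 4073804 to 6599247 in root. Reads came from the 3′ ends of transcripts, so a gene's level does not grow with its length. The tables pair no symbol or product with the gene identifiers, and the genes are therefore named by identifier only and given no role. In such bulk tissue, fewer cells expressing a gene and less RNA per cell cannot be told apart. Root RNA in the leaf libraries was gauged by 79 genes outside the set that had at least 100 CPM in control root and under 1 CPM in control leaf. Their summed level was 19.1 to 30.8 CPM in control leaf, 76.0 to 116.2 CPM under root-only chilling, and 397.2 to 609.6 CPM in both kinds of chilled leaf, against a mean of 23455 CPM in control root. Those genes were thus higher in root-only leaf than in control leaf, and lower than in chilled leaf. They were picked for a low level in control leaf, which favours higher levels in the other leaf groups. Whether their levels come from root RNA or from leaf expression was not tested. Of the 178 genes, 1 meets the same definition.

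In all, 326 genes, 1.40% of the 23290, reached the required change in leaf under root-only chilling. Of these, 107 fell outside the allowed range in chilled leaf, 86 of them because they were higher there in at least 1 condition. A further 41 were dropped on their values in root. Near the boundary the set has no gap: 43 members had a leaf change within 0.25 above the threshold and 60 other genes that met the remaining conditions lay within 0.25 below it. The member closest to the threshold, Zm00001d050323, was at 4.41, 5.61 and 5.11 CPM in root-only leaf and at 0.206, 0 and 0 CPM in control leaf, a change of 2.5. Zm00001d014055, the next, had a change of 2.53. Just outside, Zm00001d045136 was at 64.5, 61.4 and 83.0 CPM against 11.7, 11.6 and 11.7 CPM, a change of 2.48, and Zm00001d032906 had a change of 2.47. These genes were picked for lying next to the line, so their likeness in this change is given by the choice. With 1 CPM added to each mean, like changes came from unlike levels, as in Zm00001d050323 and Zm00001d045136.

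Across the set the leaf change under root-only chilling had a median of 3.21 on the log2 scale, or 9.23-fold, and ran from 2.5 to 8.74. It reached 4 in 49 members and 6 in 6 members. By contrast the median was 0.03 in leaf under whole-plant chilling and 0.05 under shoot-only chilling, as the choice of members requires. The members went from 0.453% ± 0.0282 (SD, n = 3) of all counts in control leaf to 5.44% ± 0.119 in root-only leaf. Under whole-plant and shoot-only chilling they held 0.389% ± 0.0435 and 0.386% ± 0.0438 of leaf counts. The mean of log2(CPM + 1) over the 178 genes was 1.69 ± 0.01 in control leaf and 5.28 ± 0.12 in root-only leaf. These values describe the selection and were not tested.

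**Figure D1:**
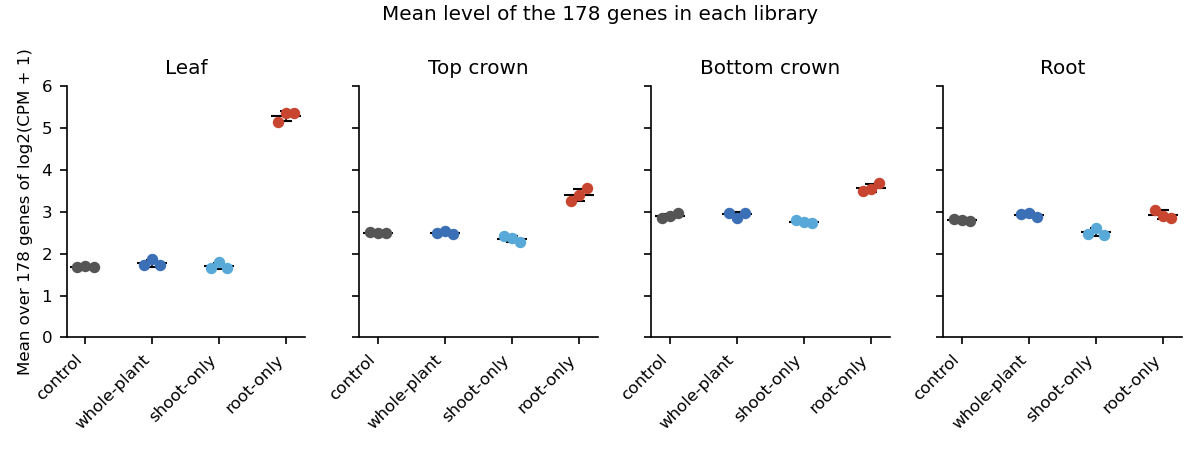
Mean of log2(CPM + 1) over the 178 genes (vertical axis) in each of the 48 libraries, by tissue and condition. Each point is 1 library, the long line the mean of 3 and the short bars 1 SD. The leaf root-only libraries stand apart by selection, and the root-only libraries of both crown parts also lie above every other library of their tissue.

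Many members were at low levels in control leaf. In the 3 control leaf libraries 24 had no counts, 62 had a mean above 0 and under 1 CPM, 61 had 1 to 10 CPM, 29 had 10 to 100 CPM and 2 had 100 CPM or more. Under root-only chilling 26 were under 10 CPM, 112 at 10 to 100 CPM, 35 at 100 to 1000 CPM and 5 at 1000 CPM or more. All 3 root-only libraries lay above all 3 control libraries for 177 of the 178 genes, where 24.1% of the 23290 genes did so. They also lay above the other 9 leaf libraries for 177, against 15.5%. The selection favours such separation, and nothing is read from it. The exception to both was Zm00001d040567, at 97.6, 28.2 and 6.97 CPM in root-only leaf and 1.44, 8.20 and 3.38 CPM in control leaf, so that 1 root-only library lay among the controls. The coefficient of variation between the 3 root-only leaf libraries had a median of 19.5% and exceeded 50% in 9 members.

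A few genes carried most of the set's RNA. Zm00001d048611 held 45.4% of the summed level in root-only leaf, and the 10 most abundant members held 74.9%. In control leaf Zm00001d048611 was at 2944, 3247 and 3330 CPM, and under root-only chilling at 17688, 20285 and 19203 CPM. Whole-plant chilling left it at 3009, 3262 and 2662 CPM and shoot-only chilling at 2777, 2474 and 3752 CPM, both overlapping control. In control root it was at 20597, 22597 and 20590 CPM, close to its level in root-only leaf, although leaf and root tables were scaled separately. The level of the whole set did not rest on it: without that gene the summed level was 1390 ± 57.3 CPM in control leaf and 22963 ± 2589 CPM in root-only leaf.

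The second most abundant member, Zm00001d040190, was at 186.8, 198.7 and 200.8 CPM in control leaf and at 3565, 3671 and 4980 CPM under root-only chilling. Zm00001d014947 went from 39.7, 64.7 and 29.7 CPM to 1722, 1975 and 1557 CPM. Neither gene's root-only libraries came near the range of the other leaf groups, in which Zm00001d040190 did not exceed 341.3 CPM. Zm00001d014083 had the largest leaf change of the set. It was at 0.206, 0 and 0 CPM in control leaf, at 0, 0 and 0.463 CPM under whole-plant chilling, at 0.630, 0.220 and 0 CPM under shoot-only chilling, and at 469.1, 532.5 and 364.5 CPM under root-only chilling. Among the 24 members with no counts in control leaf, Zm00001d050577 was the most abundant, at 91.1, 110.5 and 133.2 CPM under root-only chilling. Set against a floor of 3 counts over the control group, that is at least 156.4-fold higher. It was also without counts in the 6 libraries of chilled leaf, as were 9 members over the 9 leaf libraries other than root-only.

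**Figure D2:**
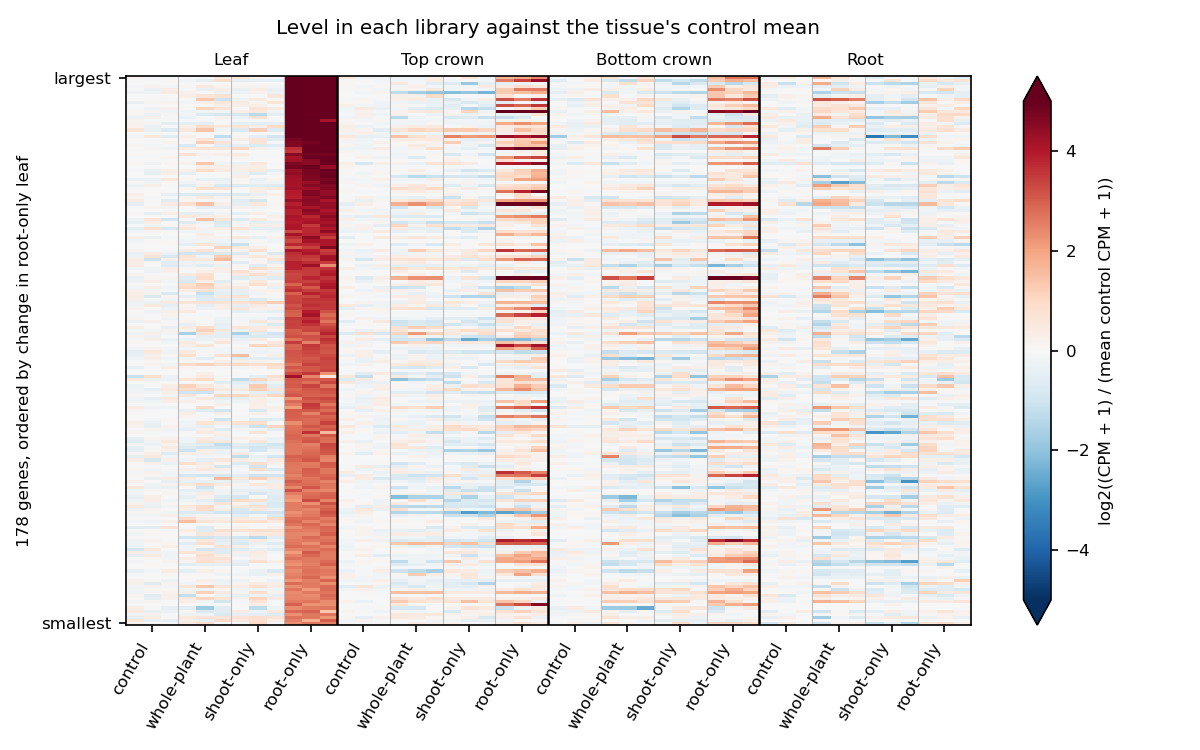
Log2 ratio of each gene's level to the control mean of its tissue, with 1 CPM added (colour, capped at 5 in both directions), for the 178 genes (rows, ordered by their change in root-only leaf) in 48 libraries (columns, 3 per condition). The red block in root-only leaf is the selection, while under root-only chilling some crown rows are red and others are not. Of the 117 members tested in both crown parts, 40.2% rose in both, against 12.3% of all genes tested in both. Some of the 117 passed the low-count filter only through root-only libraries.

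In control plants few members had their highest level in leaf. The rule favours this, since a large leaf change is easier to reach from a low level in control leaf. The highest control mean lay in root for 75 members, in bottom crown for 47, in top crown for 37 and in leaf for 18, and 1 member had no counts in any control library. The tables of the tissues were normalised separately, so these ranks are approximate. In control plants 127 members were lower in leaf than in root, and 102 of these exceeded the control root level in root-only leaf. In 138 members the root-only leaf mean exceeded the control mean of all 3 other tissues. Leaf levels in control and under root-only chilling entered the rule, and no share over all genes stands beside these counts. They therefore describe the selection. Zm00001d048611 was the most abundant member in control root and in control bottom crown, where it was at 4043, 4354 and 4992 CPM. Zm00001d014946 was the most abundant in control top crown, at 450.6, 450.9 and 456.5 CPM. There it was at 556.9, 555.9 and 653.1 CPM under root-only chilling, and its leaf levels, 4.52 to 8.10 CPM in control and 39.9 to 49.7 CPM under root-only chilling, stayed below those of the crown throughout. A member high in another organ could thus still be among the genes with a large leaf change.

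The crown was the place where the set could be tested, since its libraries took no part in the choice of genes. In the top crown, many members were also higher under root-only chilling than in control. A gene that is detected only because root-only chilling raised it has to differ, so the count is first given for the 101 members that passed the low-count filter on the other 9 top crown libraries. Of these, 47 rose and 7 fell by edgeR's quasi-likelihood test (Benjamini-Hochberg adjusted p under 0.05 over all genes), and 47 did not pass. Among all genes that passed the same filter, 17.3% rose and 18.6% fell. The median log2 fold change was 0.67 over the 101 members and -0.05 over all those genes. With the root-only libraries included in the filter, 124 members were tested, of which 68 rose and 7 fell, against 17.8% and 18.1% of all genes. The other 54 members had too few counts in top crown to be tested.

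Among members that passed the filter without the root-only libraries, reached 10 CPM in a compared group and had no overlap of libraries, Zm00001d016255 had the largest rise in top crown. It went from 9.56, 17.2 and 13.5 CPM in control to 1083, 951.8 and 998.7 CPM under root-only chilling (log2 fold change 6.22, SE 0.30, edgeR adjusted p = 1.05e-09). Zm00001d023799 came next, from 2.07, 0.687 and 2.37 CPM to 109.0, 103.1 and 81.5 CPM (5.80, SE 0.34, edgeR adjusted p = 2e-09). For both genes every root-only library lay far above every control library. Larger fold changes belonged to Zm00001d017486, which had no counts in control and was at 5.44, 8.55 and 22.3 CPM under root-only chilling, and to Zm00001d025229, which was at 0.159, 0 and 0 CPM and at 5.93, 14.0 and 26.2 CPM. Those genes passed the low-count filter only through their root-only libraries, so their values are a description. Among those that fell, Zm00001d049692 went from 32.0, 51.0 and 41.9 CPM to 5.60, 8.08 and 11.9 CPM (-2.31, SE 0.26, edgeR adjusted p = 2.21e-06). Zm00001d018751 went from 100.2, 142.3 and 77.4 CPM to 22.6, 22.1 and 34.7 CPM (-2.02, SE 0.36, edgeR adjusted p = 0.00102). The same change of root temperature therefore went with opposite directions in leaf and crown for Zm00001d049692, which was under 1.2 CPM in control leaf and at 8.47, 10.3 and 16.6 CPM in root-only leaf.

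In the bottom crown, too, members that rose outnumbered those that fell. Of the 115 members that passed the filter without the root-only libraries, 49 rose, 12 fell and 54 did not pass the test, against 20.8% of all genes that rose and 18.3% that fell. The median was 0.42 over those members and -0.04 over all genes. Scaling by library size alone moved the median of all genes by -0.27 in this comparison. In the wider filter 131 members were tested: 63 rose and 12 fell, against 21.4% and 18.0% of all genes. With library size alone 53 rose and 19 fell, with medians of 0.29 over members and -0.29 over all genes. No share over all genes under that scaling stands beside the 53 and 19. Zm00001d025055, which passed the filter only through its root-only libraries and is given as a description, was at 0, 0.292 and 0.585 CPM in control and at 29.2, 25.8 and 39.4 CPM under root-only chilling. Zm00001d023799 went from 2.44, 1.17 and 2.05 CPM to 116.7, 95.5 and 77.2 CPM (5.70, SE 0.30, edgeR adjusted p = 3.47e-09). Neither gene's groups overlapped, and the chilled libraries lay more than an order of magnitude above control. Zm00001d013934 fell from 18.7, 17.1 and 14.9 CPM to 8.35, 4.87 and 4.46 CPM (-1.51, SE 0.32, edgeR adjusted p = 0.0016), and Zm00001d049692 fell from 54.8, 67.8 and 69.7 CPM to 23.0, 16.4 and 30.4 CPM (-1.44, SE 0.20, edgeR adjusted p = 3.57e-05).

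**Figure D3:**
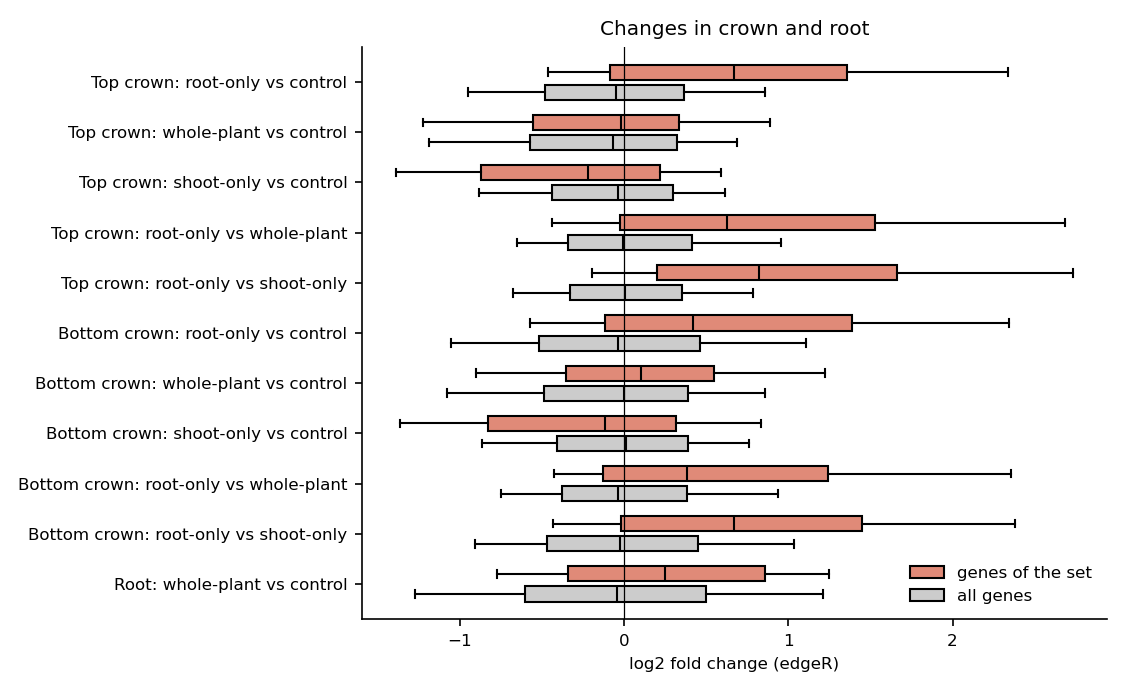
Log2 fold changes from edgeR (horizontal axis) for members of the set that passed the low-count filter without the first-named group (red) and for all genes that did so (grey), in 10 comparisons within crown and 1 within root. Boxes span the quartiles with a line at the median and whiskers run from the 10th to the 90th percentile. The red boxes lie to the right of the grey ones in the comparisons of root-only chilling with control, with medians of 0.67 in top crown and 0.42 in bottom crown.

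Members can be grouped by their mean level over all libraries of the crown part, root-only included, and some were called at every level. Among the 101 members of the top crown, 12 of 33 with a mean under 10 CPM rose, 27 of 55 at 10 to 100 CPM rose and 8 of 13 at 100 CPM or more rose, with medians of 0.71, 0.66 and 0.67. In the bottom crown 15 of 39, 25 of 59 and 9 of 17 rose, with medians of 0.49, 0.36 and 0.49. Among all genes that passed the same filter, 10.6%, 21.2% and 22.6% rose at these levels in top crown. In bottom crown 11.3%, 26.3% and 35.5% did, so the share called also grew with level over all genes. A gene that rose can enter a higher level through its rise. In top crown Zm00001d016255 had a mean of 13.4 CPM in control and 1011 CPM under root-only chilling. Shares and medians by level therefore cannot show how the response depends on level. Between the changes in leaf and crown Pearson's r across genes was 0.144 in top crown (n = 101 genes) and 0.142 in bottom crown (n = 115 genes). Every member has a leaf change of at least 2.5 by selection, which narrows the range of that change and can lower r. These values of r therefore cannot show how closely the leaf and crown responses go together. The leaf change, which has 1 CPM added to each mean, was larger than the fitted crown change for 109 of the 124 members tested in top crown and for 123 of the 131 tested in bottom crown, and members were chosen for a large leaf change.

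The calls in the 2 crown parts can be set side by side. Of 117 members tested in both parts, 47 rose in both, 4 fell in both and 0 went in opposite directions. Of all 16954 genes tested in both, 12.3% rose in both, 10.8% fell in both and 0.283% went in opposite directions. Some of the 117 passed the low-count filter only through root-only libraries. Among the 99 that passed both filters without root-only libraries, 46 rose in top crown, 41 in bottom crown and 34, or 34.3%, in both, and 53.5% rose in at least 1 part. Of all 16592 genes that passed both of those filters, 12.1% rose in both parts, 26.3% in at least 1 and 0.289% went in opposite directions. The 34 were 73.9% of the members that rose in top crown and 82.9% of those that rose in bottom crown, where the same shares over all genes were 68.3% and 58.2%. The fold changes of the 99 had a Pearson's r of 0.855 and a Spearman's rho of 0.796 across genes, against 0.779 and 0.722 over the 16592 genes. Genes are not independent replicates, and the difference between members and all genes in this likeness was not tested. Crown parts have separate libraries and controls, but the labels do not say whether the same plants gave both. In all, 33 members were tested in both parts and called in neither, and 40 could be tested in neither.

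The difference in response between the crown parts was also tested directly. The interaction of crown part and root-only chilling, fitted on the 24 crown libraries of all conditions, was called for 7 of 141 members, or 4.96%, all with the lower change in bottom crown, and for 0 in the other direction. Over all genes it was called for 1.12% in that direction and for 1.87% in the other. Counting only genes that passed the filter on the crown libraries other than root-only, it was called for 6 of 116 members, or 5.17%, against 1.14% of all genes, and for 0 members against 1.9% in the other direction. At an unadjusted p under 0.05 by edgeR's test there were 30 and 13 of the 141 members, and 24 and 12 of the 116. DESeq2 called 8 and 2. No share over all genes stands beside these unadjusted and DESeq2 counts, so nothing about the members is read from them. The count of 7 went down to 4 without top crown control replicate 1 or 2, top crown root-only replicate 3, or bottom crown root-only replicate 1 or 2. Zm00001d043709, which passed that narrower filter, was at 0.797, 0.343 and 0.338 CPM in control top crown and at 13.1, 10.2 and 16.7 CPM under root-only chilling. In bottom crown it was at 2.44, 1.31 and 2.92 CPM in control and at 3.97, 6.32 and 8.75 CPM under root-only chilling, a smaller step from a higher start (interaction -3.19, SE 0.68, edgeR adjusted p = 0.00814). Scaling by library size alone moved the median of all genes by -0.14 in this comparison.

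**Figure D4:**
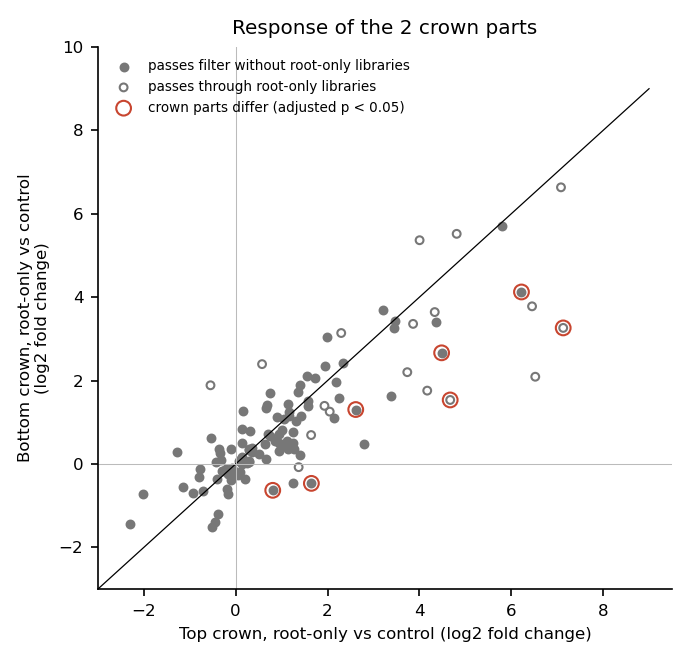
Log2 fold change under root-only chilling against control in top crown (horizontal) and bottom crown (vertical) for the 117 members tested in both. Filled points passed the low-count filter without root-only libraries in both parts, open points did not, red rings mark genes whose response differed between the parts (adjusted p under 0.05), and the line marks equal change. Points lie along the line, with a Pearson's r of 0.855 for the 99 filled ones, and the ringed genes lie below it.

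The other kinds of chilling ask whether members changed in the crown only when the root alone was cold. Under whole-plant chilling, 17 of 124 members rose in top crown and 16 fell, against 16.8% and 19.5% of all genes tested. Under shoot-only chilling 8 rose and 28 fell, against 11.4% and 12.5%. Some of the 124 were tested only because root-only libraries raised them past the filter. Of the 101 that passed without those libraries, 16.8% rose and 13.9% fell under whole-plant chilling, against 17.0% and 19.7% of all genes that passed likewise, with medians of -0.01 and -0.06. Under shoot-only chilling 7.92% of the 101 rose and 24.8% fell, against 11.6% and 12.7%, with medians of -0.18 and -0.03. Scaling by library size alone shifted the all-gene median by -0.25 under whole-plant and -0.11 under shoot-only chilling. It gave 11 that rose and 33 that fell, and 5 and 30. Under that scaling the whole-plant median was -0.26 over members and -0.31 over all genes. The shoot-only median was -0.33 over members and -0.15 over all genes. No share over all genes under that scaling stands beside these counts. Without whole-plant replicate 3 the 16 became 10, and without shoot-only replicate 3 the 28 became 15.

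In bottom crown 24 of 131 members rose and 20 fell under whole-plant chilling, against 17.6% and 17.4% of all genes. Shoot-only chilling had 15 that rose and 27 that fell, against 14.4% and 11.8%. Of the 115 that passed the filter without root-only libraries, 19.1% rose and 17.4% fell under whole-plant chilling, against 17.6% and 17.6% of all genes that passed likewise. Under shoot-only chilling 13.0% rose and 21.7% fell, against 14.5% that rose and 2208 of 18452 genes that fell. With library size alone, which shifted the all-gene median by -0.23 and -0.16, whole-plant chilling had 12 that rose and 25 that fell. Shoot-only chilling then had 10 and 35. No share over all genes under that scaling stands beside these counts. Leaving out control replicate 2 left 15 that rose under whole-plant chilling. Control replicate 3 or whole-plant replicate 2 left 12 or 13 that fell. Without control replicate 3, 9 rose under shoot-only chilling. Under whole-plant chilling the median was 0.10 over members and 0.00 over all genes, and with library size alone -0.13 and -0.23. Under shoot-only chilling it was -0.11 over members and 0.02 over all genes, and with library size alone -0.27 and -0.14.

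Some members also rose in crown under whole-plant chilling. In top crown Zm00001d016255 was at 49.5, 68.7 and 44.5 CPM under whole-plant chilling, above its controls (1.98, SE 0.28, edgeR adjusted p = 6.59e-05) and below its root-only libraries. In the bottom part it went from 25.2, 40.2 and 35.7 CPM to 534.0, 539.3 and 667.6 CPM under root-only chilling (4.13, SE 0.20, edgeR adjusted p = 1.38e-09). Its root-only level in either crown part was above that in root-only leaf, 82.0, 120.6 and 114.0 CPM. Zm00001d023799 rose under whole-plant chilling too, from 2.07, 0.687 and 2.37 CPM to 8.32, 12.2 and 12.6 CPM in top crown (2.64, SE 0.39, edgeR adjusted p = 6.63e-05). Its bottom crown libraries were at 25.0, 17.3 and 30.6 CPM under whole-plant chilling (3.69, SE 0.30, edgeR adjusted p = 4.85e-07). For both genes the whole-plant libraries lay above all controls and below all root-only libraries of the crown.

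Among members that met the rule for naming, Zm00001d014947 had the largest rise under shoot-only chilling. In top crown it was at 20.2, 10.5 and 11.0 CPM in control, at 82.2, 64.8 and 68.4 CPM under shoot-only chilling (2.33, SE 0.25, edgeR adjusted p = 1.75e-05) and at 293.8, 246.1 and 331.3 CPM under root-only chilling (4.37, SE 0.26, edgeR adjusted p = 4.71e-09). In bottom crown it was at 1.79, 10.4 and 13.2 CPM in control and at 39.3, 90.4 and 57.6 CPM under shoot-only chilling (2.91, SE 0.54, edgeR adjusted p = 0.00415), where 1 shoot-only library exceeded 2 root-only libraries, at 70.2, 70.4 and 126.0 CPM. Zm00001d017033 rose under shoot-only chilling as well, from 33.0, 30.9 and 18.3 CPM to 68.5, 69.9 and 58.2 CPM in top crown (1.23, SE 0.25, edgeR adjusted p = 0.0026). In bottom crown its log2 fold change was 1.58 (SE 0.17, edgeR adjusted p = 1.7e-05). Both were thus among the members that rose in crown while the root was warm.

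Falling members were shared between kinds of chilling in part. In top crown Zm00001d033369 went from 46.8, 42.1 and 51.1 CPM in control to 18.9, 13.6 and 11.0 CPM under whole-plant chilling (-1.73, SE 0.19, edgeR adjusted p = 1.57e-06). Under shoot-only chilling it was at 9.98, 11.6 and 8.64 CPM (-2.24, SE 0.20, edgeR adjusted p = 7.19e-07). Under root-only chilling the same gene rose in top crown, to a mean of 140.0 CPM (1.57, SE 0.17, edgeR adjusted p = 9.24e-07). Zm00001d049692, which fell under root-only chilling in both crown parts, was also lower under shoot-only chilling, at 11.2, 5.30 and 8.17 CPM in top crown (-2.37, SE 0.26, edgeR adjusted p = 1.08e-05) and 28.2, 19.4 and 23.9 CPM in bottom crown (-1.40, SE 0.20, edgeR adjusted p = 0.000135). These comparisons share the control libraries of each crown part. Zm00001d032899 in top crown and Zm00001d003287 and Zm00001d050018 in bottom crown fell under whole-plant chilling, with log2 fold changes of -2.07, -2.38 and -1.27, and Zm00001d025665 fell under shoot-only chilling in bottom crown by 1.76. Of these, Zm00001d050018 had a higher mean in bottom crown under root-only chilling, 34.2 CPM, than in control, 13.3 CPM. It rose in top crown under root-only chilling (1.57, SE 0.22, edgeR adjusted p = 2.15e-05).

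Set directly against the other kinds of chilling, root-only chilling gave higher levels of many members in the crown. Of the 101 top crown members that passed the filter without root-only libraries, 47 were higher than under whole-plant chilling and 5 lower, against 13.8% and 12.7% of all genes, and 53 were higher than under shoot-only chilling and 1 lower, against 11.7% and 11.2%. Of the 115 in bottom crown, 41 were higher than under whole-plant chilling and 6 lower, against 14.1% and 9.47%, and 58 were higher than under shoot-only chilling and 6 lower, against 17.8% and 16.2%. In the wider filter the counts were 68 and 5, 74 and 1, 54 and 6, and 72 and 6 in the same order, against 14.5% and 12.4%, 12.3% and 10.9%, 14.4% and 9.31%, and 18.2% and 15.9%. These comparisons share their root-only libraries with those against control. Scaling by library size alone moved the median of all genes by 0.16 in top crown against whole-plant chilling and by -0.11 in bottom crown against shoot-only chilling.

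The counts of lower members in these direct comparisons were small and moved with single libraries. In top crown against whole-plant chilling the 5 became 3 without whole-plant replicate 1 and 2 without root-only replicate 2. Against shoot-only chilling the 1 became 0 without shoot-only replicate 1 or 3 or root-only replicate 2, 2 without shoot-only replicate 2 or root-only replicate 1, and 3 without root-only replicate 3. In bottom crown against whole-plant chilling the 6 became 3 without root-only replicate 2. With any single library left out, the higher members stayed between 62 and 71 and between 70 and 78 in top crown, and between 46 and 56 and between 63 and 74 in bottom crown, in the same order.

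Zm00001d025964 passed the low-count filter in both crown parts only through its root-only libraries, so its values are a description. In top crown it was at 0.797, 1.55 and 0.676 CPM in control, at 0.225, 0.383 and 0.441 CPM under whole-plant chilling, at 0, 0.196 and 0 CPM under shoot-only chilling and at 30.1, 25.4 and 31.4 CPM under root-only chilling. Each root-only library was above those of the other 3 conditions. In bottom crown its root-only libraries were at 18.6, 33.2 and 18.7 CPM, those of whole-plant chilling at 0.231, 1.73 and 1.59 CPM and those of shoot-only chilling at 0.174, 0.478 and 0 CPM. In root it did not exceed 1.83 CPM in any library.

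Of 2 further members that passed the filter only through root-only libraries, the values are likewise a description. Zm00001d047799 had no counts in top crown under whole-plant chilling and was at 6.57, 9.98 and 14.7 CPM when the root alone was cold, higher by at least 16.3-fold. Zm00001d044124 had no counts in top crown under shoot-only chilling and was at 19.5, 10.9 and 19.7 CPM when the root alone was cold, higher by at least 26.6-fold. Among members that passed the filter without root-only libraries, Zm00001d027443 had the largest rise against whole-plant chilling in both crown parts, 4.44 in top crown (SE 0.37, edgeR adjusted p = 1.88e-07). It was at 2.66, 2.08 and 1.77 CPM in bottom crown under whole-plant chilling and at 37.2, 52.7 and 73.4 CPM under root-only chilling (4.63, SE 0.29, edgeR adjusted p = 6.44e-08). In the other direction Zm00001d014178 in bottom crown was at 11.6, 12.3 and 12.7 CPM under whole-plant and at 6.47, 4.33 and 7.55 CPM under root-only chilling (-0.97, SE 0.22, edgeR adjusted p = 0.00455). Zm00001d048505 and Zm00001d002068 in bottom crown were lower under root-only than shoot-only chilling by 1.06 and 0.81 on the log2 scale. Among lower members the calls of Zm00001d049692 and Zm00001d002261 in top crown against whole-plant chilling, of Zm00001d040768 in top crown against shoot-only chilling and of Zm00001d013934 in bottom crown against whole-plant chilling did not hold without single libraries, at adjusted p up to 0.128, 0.0884, 0.105 and 0.0725.

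The 2 most abundant members of the leaf were both detected in every crown library. Zm00001d040190 was at 236.8, 228.0 and 223.5 CPM in control top crown and at 467.9, 492.0 and 598.9 CPM under root-only chilling (1.17, SE 0.14, edgeR adjusted p = 2.82e-06). In bottom crown it went from 304.2, 290.1 and 321.4 CPM to 642.4, 670.7 and 684.7 CPM (1.15, SE 0.16, edgeR adjusted p = 3.33e-05). The root-only libraries did not overlap control in either part. The change in either crown part was far below that in leaf, for which members were chosen and which has 1 CPM added to each mean. Zm00001d048611 was at 118.1, 94.3 and 88.9 CPM in control top crown and at 146.2, 402.6 and 182.6 CPM under root-only chilling (1.27, SE 0.40, edgeR adjusted p = 0.031). Without root-only replicate 2 its change was 0.70 and edgeR's adjusted p was 0.102, and leaving out control replicate 1, 2 or 3 also ended the call. Its bottom crown libraries were at 4691, 6347 and 5748 CPM under root-only chilling, which overlapped its controls and did not pass the test (0.35, SE 0.15, edgeR adjusted p = 0.0789).

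**Figure D5:**
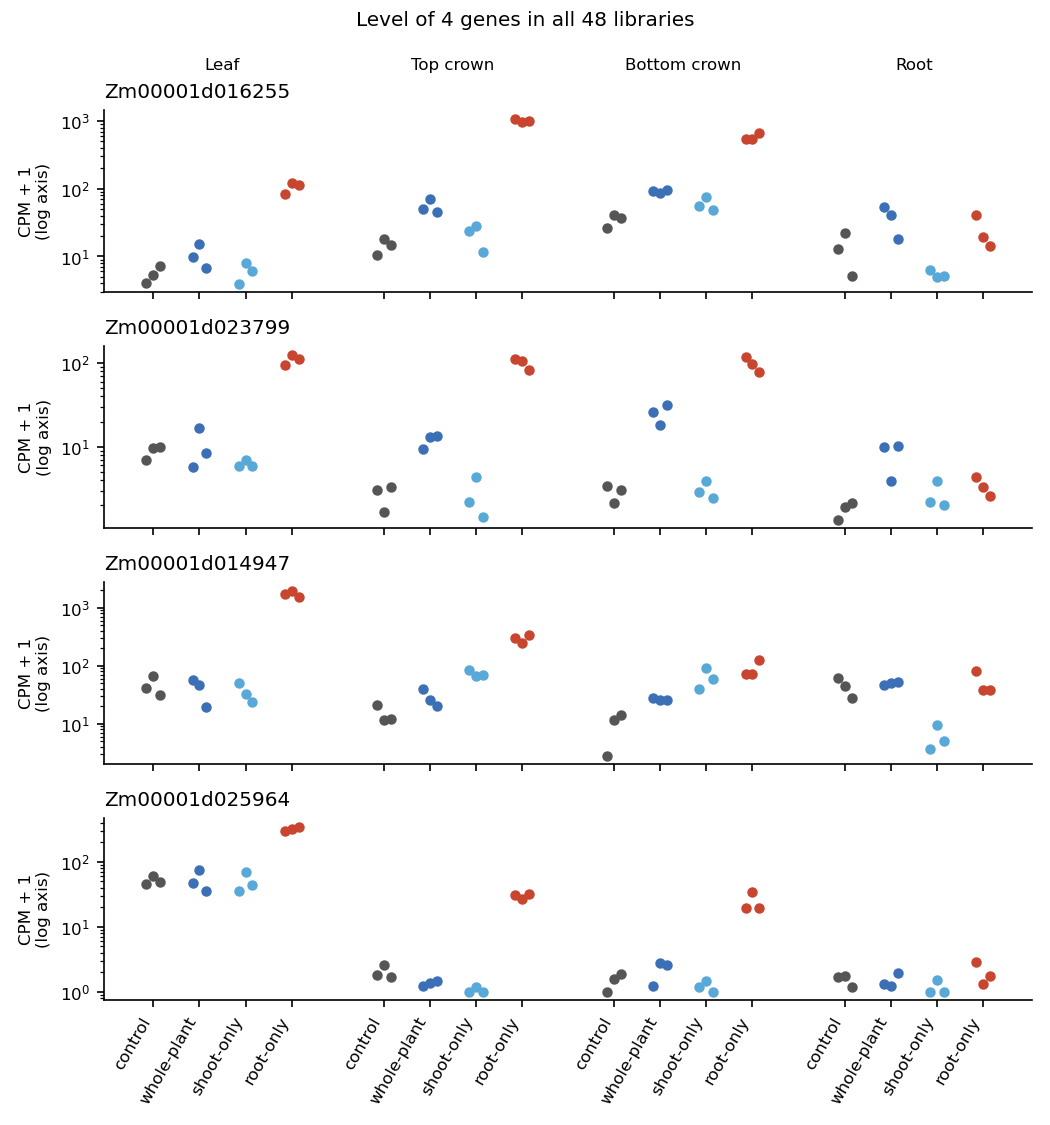
Level of 4 members in all 48 libraries, as CPM + 1 on a log axis. Each point is 1 library, grouped by tissue and condition. Zm00001d016255, Zm00001d023799 and Zm00001d025964 are highest under root-only chilling in leaf and both crown parts, while for Zm00001d014947 the shoot-only and root-only libraries of bottom crown overlap.

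In root, root-only and shoot-only chilling entered the choice of members, and whole-plant chilling did not, though it shares the control libraries. Of 116 members that passed the filter without the whole-plant libraries, 25 rose and 9 fell under whole-plant chilling, against 14.3% and 14.7% of all genes. The medians were 0.25 and -0.04. In the wider filter 119 were tested, with 26 that rose and 9 that fell against 14.9% and 14.4%. Scaling by library size alone shifted the all-gene median by -0.32 and gave 15 that rose and 21 that fell, with no share over all genes beside them. The median over the members was then -0.04 against -0.35 over all genes, where it was 0.27 against -0.03 in the wider filter with TMM factors. Without control replicate 3, 15 rose and 6 fell. The choice of members caps their rise in root under root-only and shoot-only chilling, which are measured against these same controls.

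Some members did respond in the chilled root. Zm00001d012591 was at 1.40, 2.15 and 1.96 CPM in control root and at 25.0, 21.4 and 15.5 CPM under whole-plant chilling (3.50, SE 0.44, edgeR adjusted p = 2.9e-05). It was at 6.72, 2.61 and 4.44 CPM in root under root-only chilling, between those groups. Zm00001d030526 went from 35.9, 36.5 and 34.8 CPM to 159.2, 162.1 and 104.5 CPM under whole-plant chilling (2.02, SE 0.22, edgeR adjusted p = 8.15e-06). In leaf the same gene was at 35.9, 57.7 and 31.0 CPM under whole-plant chilling, overlapping the 48.4, 53.4 and 41.6 CPM of control, and at 331.2, 348.9 and 425.4 CPM under root-only chilling. Zm00001d040190 rose in root too, from 357.3, 301.4 and 345.6 CPM to 760.8, 539.2 and 547.7 CPM (0.91, SE 0.21, edgeR adjusted p = 0.00371). Zm00001d044159 fell from 21.2, 30.7 and 20.1 CPM to 7.06, 10.2 and 10.0 CPM (-1.36, SE 0.25, edgeR adjusted p = 0.000847). Zm00001d014664 fell from 20.5, 12.3 and 28.3 CPM to 10.9, 7.51 and 4.11 CPM (-1.43, SE 0.37, edgeR adjusted p = 0.00873), which did not hold without control replicate 3 (edgeR adjusted p = 0.0535).

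At the other end were members hardly seen outside the leaf. For 7 members, the 12 libraries of top crown, those of bottom crown and those of root each held at most 10 counts in total. No share over all genes stands beside this count, so nothing about the set is read from it. Zm00001d010010 had 568 counts in leaf, 4 in each crown part and 1 in root, and its leaf levels under root-only chilling were 10.4, 35.5 and 31.0 CPM with no counts in the other 9 leaf libraries. Zm00001d020875 had 298 counts in leaf, 1 in top crown, 0 in bottom crown and 6 in root. These genes were chosen after their values were seen. A change among so few counts was not detectable at the depth of the crown and root libraries.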

How the data were processed

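RNA from B73 maize was made into QuantSeq 3′ FWD libraries and sequenced on a NextSeq500, per the labels. The submitters' processing notes name STAR and edgeR. Build, read counter and strand setting were not given in the sources used here, so antisense or overlapping genes and close paralogs may share reads. The authors deposited whole-number counts per gene for each of the 48 libraries and 4 tissue tables, called CPM by the authors, whose values are a signal equal to each count times 1 constant per library, with a relative deviation of at most 3.3e-09. That constant is the inverse of the library size as rescaled by the authors, put on the CPM scale, and levels here are counts times it.

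The members were found by rule from those tables. Counts of the 12 libraries of each tissue, or of 24 crown libraries for the interaction, were fitted with edgeR 4.0.16 in R 4.3.3 (filterByExpr, TMM factors, robust quasi-likelihood test), and p-values were adjusted by Benjamini-Hochberg over all genes tested, with a threshold of 0.05. DESeq2 1.42.0, RLE factors, library size alone, no filter, a replicate block, only the 6 compared libraries, and leaving out each replicate were alternatives. Counting only genes that pass the filter without the first-named group, or without the root-only libraries, was an alternative chosen after seeing the data. Deviations of same-numbered libraries correlated above 0.1 in all 3 pairs in 1 tested comparison, bottom crown root-only against whole-plant chilling (0.147 to 0.211), where the numbers were taken to pair the samples. The counts and p-values given for it in Results come from the fit without pairs, and the replicate block was run as an alternative. The script was tested on simulated data.

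The members and lists were chosen with earlier results of these data known. Leaf comparisons, and root under root-only and shoot-only chilling, entered the rule and were not tested. Per comparison, the text names up to 2 members in each direction that had the largest change among called members of non-overlapping groups, where either group reached 10 CPM. It also names the 2 most abundant members in root-only leaf, the most abundant in each other tissue's control and those beside the threshold. Zm00001d014083, Zm00001d050577, Zm00001d040567, Zm00001d010010 and Zm00001d020875 were singled out after their values were seen, as were further comparisons of members the rule names and the largest rises among members that pass the filter without root-only libraries. Lower bounds use a floor of 3 counts over the group. SE is the fold change divided by the root of the test statistic. Of the gene name table's entries 0 matched the identifiers, so lists and markers by name were not used. Replicate libraries differed by more than counting noise, the lowest chi-square per degree of freedom being 3.73. Floors cover counting error only.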

Additional observations from a re-analysis of the deposited data

Results flagged for a closer look

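The root-only response differed between the crown parts for 7 members, by edgeR's quasi-likelihood test of the interaction (adjusted p under 0.05), all with the lower change in bottom crown. Of these, 6 passed the filter on the crown libraries other than root-only, and Zm00001d019504 did not, so its values are a description. Zm00001d019504 was at 0.159, 0.172 and 0.845 CPM in control top crown and at 29.8, 47.7 and 98.0 CPM under root-only chilling. In bottom crown it was at 0.163, 1.02 and 0.731 CPM in control and at 3.97, 6.68 and 8.23 CPM under root-only chilling. Its interaction was -3.92 on the log2 scale (SE 1.08), and its edgeR adjusted p of 0.0495 reached 0.232 when single libraries were left out. Zm00001d043709 had an interaction of -3.19 (SE 0.68, edgeR adjusted p = 0.00814), which passed under every alternative run, at adjusted p up to 0.0371.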

How the results depend on the processing

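The choice of genes depended on the settings: 278 genes met the rule with plain library sizes (171 shared with the 178), 214 with a pseudocount of 0.5 (153 shared) and 325 with a leaf change of at least 2, while leaving out single leaf libraries gave 173 to 190. The counts of members that rose under root-only chilling stayed within 1.5 times under every alternative run. With library size alone, the counts that moved further were 11 higher and 33 lower in top crown under whole-plant chilling, 5 higher there under shoot-only chilling, 3 lower in top crown root-only against whole-plant chilling, 19 lower in bottom crown under root-only chilling, 12 higher there under whole-plant chilling, and 15 higher and 21 lower in root. Without the low-count filter they were 16 higher in top crown under shoot-only chilling, 8 lower and 3 lower in top crown root-only against whole-plant and shoot-only chilling, and 1 higher for the interaction. DESeq2 gave 2 lower in top crown root-only against shoot-only chilling and 2 higher for the interaction, RLE factors 1 higher for the interaction, and the 6 libraries alone 15 higher in root. Correlations of deviations between libraries of the same replicate number exceeded 0.1 in 9 of 18 pairs in leaf, 8 in top crown, 8 in bottom crown and 15 in root, and between different numbers in 5, 10, 2 and 6 of 36. In root the medians were 0.252 and -0.107, but for root whole-plant chilling against control the lowest of the 3 same-number pairs was 0.016, so the numbers were not taken to pair those samples. In bottom crown root-only against whole-plant chilling, where they were, the replicate block gave 56 higher and 6 lower and changed no call of a named gene. With the replicate block 3 members were lower in top crown root-only against shoot-only chilling, 14 lower in root and 1 higher for the interaction. The cause of these shifts was not tested. No share over all genes under the same setting stands beside these counts, so nothing about the members is read from them. Leaving out single libraries gave, for lower members, 10 to 15 in top crown under whole-plant and 15 to 26 under shoot-only chilling, 2 to 7 and 0 to 3 in top crown root-only against whole-plant and shoot-only chilling, 12 to 16 and 3 to 6 in bottom crown under whole-plant chilling and for root-only against it, 6 to 13 in root and 4 to 10 for the interaction. For higher members it gave 15 to 21 and 9 to 13 in bottom crown under whole-plant and shoot-only chilling, 15 to 26 in root and 0 to 1 for the interaction. Of 60 results for single genes, 51 kept their side of the threshold in every alternative and 0 changed direction. Genes of a few counts limit what the crown can show.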
